A study of Danio rerio with 6 samples.

Results

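The genes described here are those that make cortisol in the interrenal gland, the fish counterpart of the adrenal cortex, read in 6 bulk RNA-seq libraries of zebrafish kidney. A list of 10 zebrafish genes was matched to the deposited tables by symbol or synonym with case ignored: star, cyp11a2, cyp11c1, cyp17a2, cyp21a2, hsd3b1, fdx1b, mc2r, nr5a1a and mrap. Of these, 8 matched a single Ensembl identifier among the 32266 in the tables, and all 8 passed the filter on low counts. cyp11a2 and nr5a1a were not settled, because the name table gives the symbols CYP11A1 and NR5A1 to a pair of identifiers each; the values of all 4 identifiers are given below under their identifiers.

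One group of fish was homozygous for the runx1 del25 (hg97) allele (runx1-/-), and the other was their wild type (WT) siblings; runx1 encodes a transcription factor of blood development. All were of the EK strain and about 2.5 months old, and kidneys were dissected from them. There were 3 libraries per genotype, and since each drew on 3 pooled kidneys, a value is an average over fish. The libraries held between 16147770 and 30577328 expected counts. runx1 itself had 0, 5 and 5 counts in runx1-/- pools 1, 2 and 3, against 8, 5 and 7 counts in WT pools 1, 2 and 3, too few to check the label of a single library. Levels are given as CPM, counts relative to the library size after scaling by the trimmed mean of M-values (TMM). WT pool 1 stood apart, with a TMM factor of 0.771 where the others had 1.01 to 1.08, and with the highest level of red cell transcripts. The sex of the fish, the extent of dissection and any batch were not given in the labels.

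In zebrafish the interrenal cells lie in the head kidney, beside blood-forming tissue and renal tubules and mixed with chromaffin cells that make catecholamines, so a dissected kidney can carry this gland along. Cortisol output is driven by adrenocorticotropic hormone from the pituitary. The hormone binds the receptor Mc2r, which needs the accessory protein Mrap, and the nuclear receptor Nr5a1a maintains transcription of the synthesis genes. Cholesterol is carried into the mitochondrion by Star, cut by Cyp11a2 with electrons from the ferredoxin Fdx1b, and turned into cortisol by Hsd3b1, Cyp17a2, Cyp21a2 and Cyp11c1. In bulk tissue, fewer cells of a type and less RNA per cell cannot be told apart.

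The hormone receptor pair spanned a wide range over the pools. mc2r (ENSDARG00000054949) was at 9.69, 0.169 and 0 CPM in runx1-/- pools 1, 2 and 3, against 0, 3.44 and 0.547 CPM in WT pools 1, 2 and 3. Its 162 counts in runx1-/- pool 1 stood at least 67.0-fold above the floor of 3 counts in a library without any. mrap (ENSDARG00000091992) was at 31.2, 0.575 and 0.0742 CPM in the runx1-/- pools, against 0.0965, 6.17 and 0.395 CPM in the WT pools. For both genes runx1-/- pool 1 and WT pool 2 were high, runx1-/- pool 2 and WT pool 3 were intermediate, and runx1-/- pool 3 and WT pool 1 were at no more than 2 counts, so the genotypes overlapped.

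star (ENSDARG00000006137), which delivers cholesterol to the inner mitochondrial membrane, was counted most. It had 33906, 1149 and 133 counts in the runx1-/- pools and 84, 14259 and 1587 counts in the WT pools. This was 2029, 38.9 and 4.93 CPM in the runx1-/- pools, against 4.05, 564 and 48.2 CPM in the WT pools. The highest and the lowest pool differed 501-fold, and each genotype held a high, an intermediate and a low pool. fdx1b (ENSDARG00000038956), the mitochondrial electron carrier, was at 180, 3.55 and 0.371 CPM in the runx1-/- pools, against 0.965, 39.5 and 3.95 CPM in the WT pools, a 487-fold span.

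The enzymes after side-chain cleavage showed the same high, intermediate and low pools. hsd3b1 (ENSDARG00000069926), which converts pregnenolone to progesterone, was at 134 CPM, 2.44 CPM and 0.222 CPM in the runx1-/- pools, against 0.530, 37.5 and 2.28 CPM in the WT pools. cyp17a2 (ENSDARG00000053966), the hydroxylase of the cortisol branch, was at 87.1, 2.27 and 0.148 CPM in the runx1-/- pools, against 0.482, 20.6 and 3.13 CPM in the WT pools. Between the highest and the lowest pool these enzymes differed 602-fold for hsd3b1 and 587-fold for cyp17a2. cyp21a2 (ENSDARG00000037550), the hydroxylase that yields deoxycortisol, was at 145, 5.11 and 0.630 CPM in the runx1-/- pools, against 0.675, 39.9 and 5.29 CPM in the WT pools. cyp11c1 (ENSDARG00000042014), which makes the last step to cortisol and also serves androgen synthesis in the testis, had the narrowest span, 92.9-fold, at 31.4, 1.45 and 0.371 CPM in the runx1-/- pools and 0.338, 17.7 and 1.40 CPM in the WT pools.

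**Figure D1:**
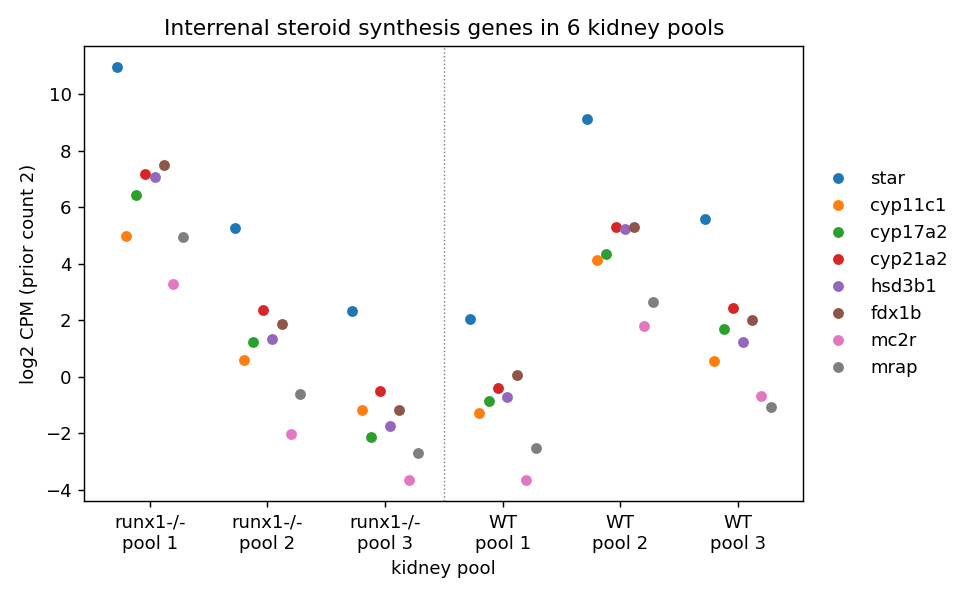
Level of each of the 8 genes on the y axis, in log2 CPM with a prior count of 2, in each kidney pool on the x axis; points are single pools, coloured by gene, with the runx1-/- pools left of the dotted line. The 8 genes are high in runx1-/- pool 1 and WT pool 2 and low in runx1-/- pool 3 and WT pool 1.

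All 8 genes had their highest level in runx1-/- pool 1, their second highest in WT pool 2 and their 2 lowest in runx1-/- pool 3 and WT pool 1. On the log2 scale the pools spanned between 6.24 and 8.94 units for these genes, against a median span of 1.46 over all genes tested; 2.91% of the genes tested spanned at least as much as the narrowest of the 8. runx1-/- pool 1 stood 1.77-fold to 5.06-fold above WT pool 2. Within the runx1-/- genotype pool 1 stood 21.6-fold to 57.3-fold above pool 2, and within WT pool 2 stood 6.29-fold to 16.4-fold above pool 3. The steps within a genotype were thus larger than the step between the highest pools of both genotypes for every one of the 8 genes.

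Co-variation was measured on log2 CPM over the 6 pools, for all 28 pairs of the 8 genes. The widest gap between neighbouring pools in the mean of the 8 genes was 3.28 of a range of 7.89 log2 units, so the pools were not treated as separate clusters. Pearson's r lay between 0.972 and 0.999 and Spearman's rho between 0.886 and 1. The exact two-sided permutation p-values over the 720 pairings reached 0.00556 at most for r and 0.0333 for rho. After Benjamini-Hochberg adjustment over the 28 pairs all 28 passed 0.05 by either measure, with permutation p-values of at most 0.00556 and 0.0333. The pairs are of 8 genes that move together over the same 6 pools, so they do not count as 28 separate observations. The share of pairs over all genes tested that would pass was not computed. For star and cyp21a2 r was 0.999 (exact permutation p = 0.00417, adjusted 0.00556) and rho was 0.943 (exact permutation p = 0.0167, adjusted 0.0233). Without the 2 pools farthest from the median of the first gene, which were runx1-/- pool 1 and WT pool 2 for 23 pairs and runx1-/- pools 1 and 3 for 5, the r values lay between 0.839 for mc2r with mrap and 0.997. Without runx1-/- pool 1 and WT pool 2 for all 28 pairs they lay between 0.839 and 0.998, as a description of 4 pools. Read as deviations from each genotype's own mean, the 28 values of r lay between 0.975 and 0.999.

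The variance of each gene over the pools was then divided by genotype. Between 0.00759% and 2.40% of the variance in log2 CPM lay between the genotypes, in mc2r and mrap, against a median of 14.9% over all genes tested. Between 97.6% and 99.4% of it was shared with the mean of the other 7 genes. These shares are descriptions of 6 pools and carry no test.

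The genotype comparison itself gave no call. The means were 691 ± 1159 CPM in runx1-/- pools and 205 ± 311 CPM in WT pools for star, and 50.3 ± 82.3 CPM in runx1-/- pools and 15.3 ± 21.5 CPM in WT pools for cyp21a2 (SD, n = 3 each), so each SD exceeded its mean. The log2 fold change of star was 1.75 (SE 2.20, edgeR adjusted p = 0.842), and that of mrap, the highest of the 8, was 2.25 (SE 2.1, edgeR adjusted p = 0.813). cyp11c1 had the lowest at 0.76 (SE 1.79, edgeR adjusted p = 0.916). None of the 8 reached an adjusted p under 0.05 in edgeR's quasi-likelihood test, as 0% of the 18866 genes tested did, and none of the 8 had an unadjusted p under 0.05, which 5.23% of all genes tested had. The DESeq2 Wald test called 0.557% of all genes, but of the 8 it gave only mc2r a p-value; for the other 7, as for 144 genes in all, its limit on Cook's distance left none. Without that limit, a choice made after seeing the data, it called 0.594% of all genes and none of the 8, with DESeq2 adjusted p-values of 0.888 to 0.952. The pools of the genotypes overlapped for each of the 8, while 12.5% of all genes tested showed no overlap.

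Leaving out a single pool reversed the sign of these fold changes only for runx1-/- pool 1. The median over the 8 genes was 1.75, against -0.03 over all genes tested, and all 8 were positive where 48% of all genes were. Because the 8 genes move together over the pools, they do not count as 8 separate observations. Without runx1-/- pool 1 the median was -2.86 and all 8 were negative; without WT pool 2 it was 4.34 and all 8 were positive. With both of these pools left out, a choice made after the levels were seen, the median was -0.17, with 2 genes positive and 6 negative, and the edgeR adjusted p-values were 0.976 or higher. Without WT pool 1, the library that stood apart, the median was 1.17 and all 8 were positive.

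**Figure D2:**
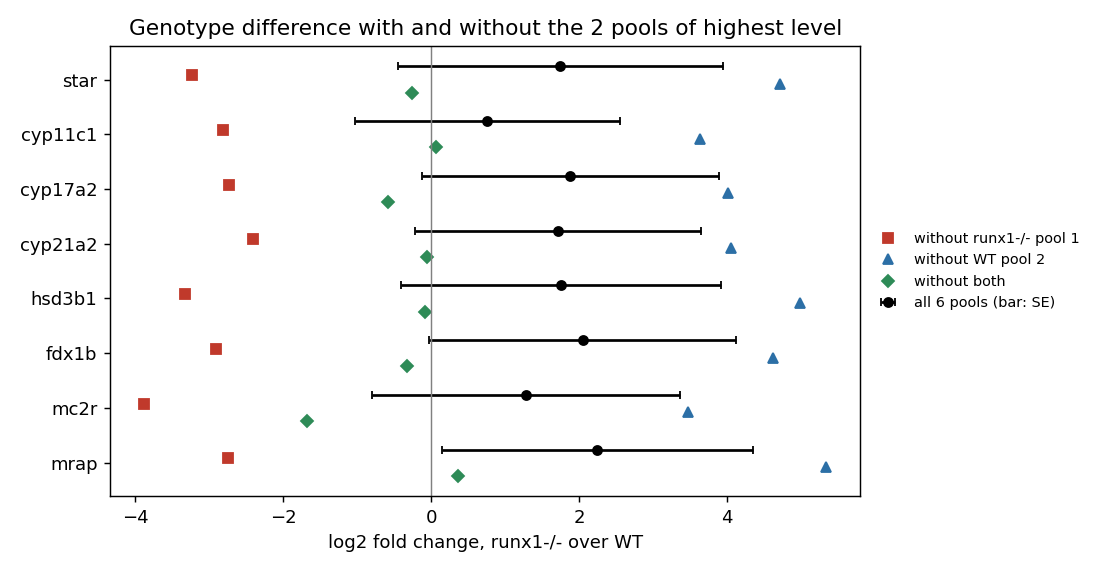
Log2 fold change of each gene, runx1-/- over WT, on the x axis; black circles with SE bars are all 6 pools, red squares leave out runx1-/- pool 1, blue triangles leave out WT pool 2 and green diamonds leave out both. The red squares lie between -3.88 and -2.41, the blue triangles between 3.47 and 5.34, and the green diamonds between -1.68 and 0.36.

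Whether the genes kept their proportions was asked with counts relative to star within each library, which do not depend on library scaling. cyp21a2 had 71.6, 131 and 128 counts per 1000 star counts in the runx1-/- pools, against 167, 70.8 and 110 in the WT pools. Its proportion to star thus spanned 2.35-fold over the pools where its level spanned 230-fold. For hsd3b1 the proportion spanned 2.90-fold, for fdx1b 3.40-fold, for cyp17a2 3.96-fold and for cyp11c1 5.39-fold. In the pools with few counts the proportions are imprecise: the 17 cyp21a2 counts of runx1-/- pool 3 give an exact 95% interval of 72.3 to 212 per 1000 star counts, and the 14 counts of WT pool 1 one of 87.4 to 295. The intervals of runx1-/- pool 2 (110 to 156) and WT pool 3 (93.2 to 128) lay above those of runx1-/- pool 1 (68.7 to 74.6) and WT pool 2 (66.4 to 75.5), so cyp21a2 made up less relative to star in both pools richest in these transcripts. Of the 7 ratios to star, only 1, that of cyp21a2, was lower in both these pools than in every other pool. Across all 6 pools the slope of log2 CPM on that of star was below 1 for each of the 7 genes, between 0.73 and 0.94, where constant proportions would give 1; the prior count pulls low levels towards each other and its part in the slopes was not tested. The intervals cover counting error only.

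**Figure D3:**
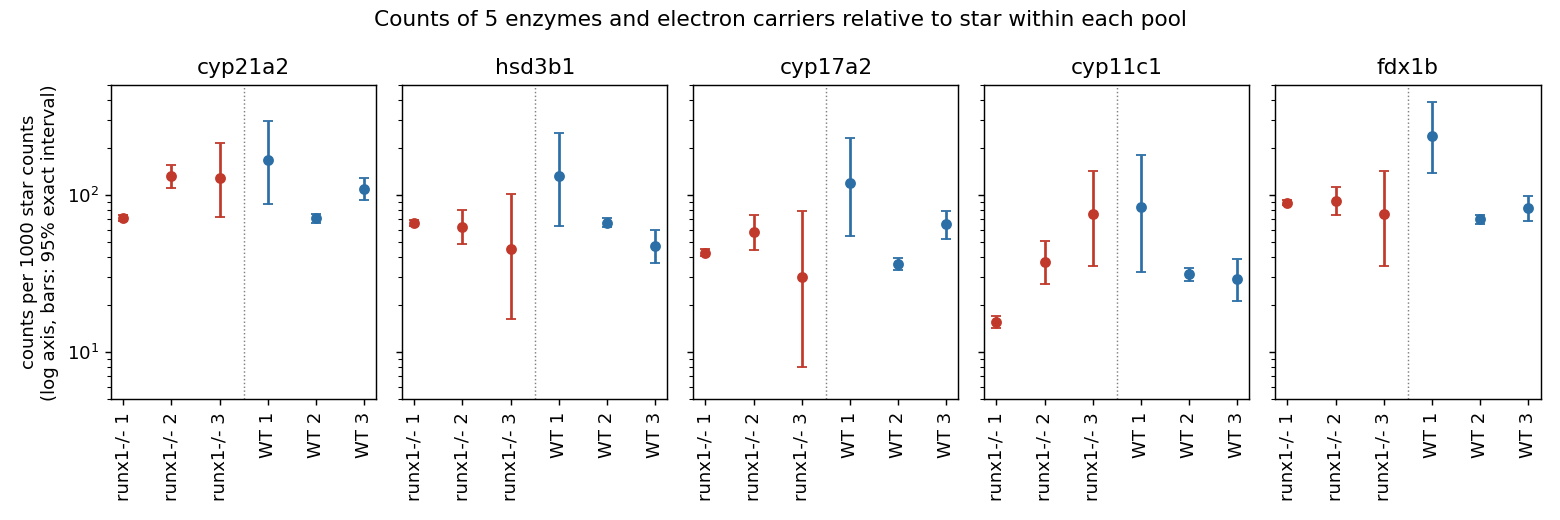
Counts per 1000 star counts on a logarithmic y axis for 5 genes, one panel each, in every pool on the x axis; bars are exact 95% intervals that cover counting error. The points stay within 2.35-fold for cyp21a2 to 5.39-fold for cyp11c1, and the widest bars belong to runx1-/- pool 3 and WT pool 1.

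Between the 2 pools richest in these transcripts the proportions of hsd3b1 and cyp21a2 were close. The proportion to star in runx1-/- pool 1 over that in WT pool 2 was 0.994 for hsd3b1, 1.01 for cyp21a2, 1.17 for cyp17a2, 1.27 for fdx1b, 1.41 for mrap and 0.783 for mc2r. cyp11c1 was lowest at 0.492, with 15.5 counts per 1000 star counts (exact 95% interval 14.2 to 16.8) in runx1-/- pool 1 against 31.4 (28.5 to 34.5) in WT pool 2. Intervals of the 2 pools were also apart for fdx1b (85.7 to 92.3 against 65.6 to 74.7) and cyp17a2 (40.7 to 45.2 against 33.4 to 39.9). The same held for mrap (14.1 to 16.8 against 9.28 to 12.8). This compares 2 libraries, not the genotypes. fdx1b was at 238 counts per 1000 star counts (138 to 391) in WT pool 1, above its range of 75.2 to 91.4 in the runx1-/- pools and of 70.1 to 81.9 in the other WT pools, though the interval of runx1-/- pool 3 (35.2 to 143) overlapped with it.

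The proportions were then set between the genotypes, where 3 pools against 3 cannot give a p under 0.1. The log2 ratio to star averaged -3.22 ± 0.51 in runx1-/- pools and -3.18 ± 0.64 in WT pools for cyp21a2 (SD, n = 3 each; exact permutation p = 1). For cyp17a2 it averaged -4.51 ± 0.40 in runx1-/- pools and -3.91 ± 0.88 in WT pools (SD, n = 3 each; exact permutation p = 0.400). Across the 7 ratios the differences lay between -0.77 for mc2r and 0.22 for mrap. For mc2r the log2 ratio averaged -7.82 ± 0.20 in runx1-/- pools and -7.06 ± 0.55 in WT pools (SD, n = 3 each). With 0.5 counts added to each count, every runx1-/- pool was below every WT pool. The exact two-sided permutation p of mc2r was then the smallest possible, 0.1, and 0.700 after adjustment over the 7 ratios. This ratio rests on 0 counts in runx1-/- pool 3 and WT pool 1, where the counts added before the logarithm set its value. Without added counts the ratio was 0 in WT pool 1, below runx1-/- pools 1 and 2. With 2 counts added the exact permutation p was 0.4, so the separation depends on the added counts.

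The unsettled pairs were read by identifier. Of the CYP11A1 pair, which encodes the side-chain cleavage enzyme, ENSDARG00000092696 was at 110 CPM, 2.33 CPM and 0.297 CPM in the runx1-/- pools, against 0.289, 29.3 and 3.56 CPM in the WT pools, the order of pools seen for star. ENSDARG00000002347 was at 6.46, 3.11 and 3.71 CPM in the runx1-/- pools, against 0.530, 5.22 and 14.7 CPM in the WT pools, highest in WT pool 3. Of the NR5A1 pair, ENSDARG00000023362 was at 4.19, 0.169 and 0.0371 CPM in the runx1-/- pools, against 0, 0.910 and 0.0608 CPM in the WT pools. ENSDARG00000103176 was at 3.77, 0.135 and 0.0742 CPM in the runx1-/- pools, against 0.193, 2.18 and 0.334 CPM in the WT pools. Both NR5A1 identifiers were high in runx1-/- pool 1 and WT pool 2, and both failed the filter on low counts and were added back for the fit. Which identifier of each pair is cyp11a2 or nr5a1a was not settled here, and estimated counts can divide reads between such paralogs.

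Paralogs of the other genes, picked for this comparison after their values were seen, had other patterns. cyp17a1, which unlike cyp17a2 also has the lyase activity needed for androgens, was at 1.5, 0.203 and 2.67 CPM in the runx1-/- pools, against 0.338, 2.93 and 15.9 CPM in the WT pools. hsd3b2 was at 0, 0.0677 and 0.927 CPM in the runx1-/- pools, against 0, 0.672 and 7.17 CPM in the WT pools. Both were highest in WT pool 3, which also had the highest summed level of the 9 matched oocyte markers. The oocyte sum ranged between 3.17 and 220 CPM in runx1-/- pools and between 4.82 and 743 CPM in WT pools, with zp2.1 at 0 in runx1-/- pool 1 and WT pool 1, and its part in the paralogs' levels was not tested. fdx1, the more widely expressed ferredoxin, was even, at 64.9, 40.0 and 71.9 CPM in the runx1-/- pools, against 28.6, 43.6 and 45.8 CPM in the WT pools.

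Of the other steroid genes listed, 18 of 23 matched an identifier and 14 passed the filter. Of these, 10 had positive and 4 negative fold changes, none passed in edgeR, and their median log2 fold change was 0.58. An unadjusted p under 0.05 in edgeR was found for 1, as for 5.23% of all genes tested. The 4 with the highest mean level were tspo, hsd11b2, fdx1 and stard3. hsd11b2, which inactivates cortisol in its target tissues, was at 149 CPM, 102 CPM and 147 CPM in the runx1-/- pools, against 39.0, 124 and 102 CPM in the WT pools. stard3, a cholesterol transporter of endosomes, was at 15.0 ± 2.28 CPM in runx1-/- pools and 15.4 ± 2.53 CPM in WT pools (SD, n = 3 each). Neither had the span of the interrenal genes. In this list nr0b1 and hsd3b2 spanned 7.00 and 6.52 log2 units, more than the narrowest of the interrenal genes at 6.24. Their order of pools was another one, with nr0b1 highest in runx1-/- pool 3 and hsd3b2 in WT pool 3.

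Each measured gene that supplies cholesterol, except soat2, spanned less over the pools than the narrowest of the 8. Of 22 listed, 18 matched and passed the filter, with 10 positive and 8 negative, none passing in edgeR and a median log2 fold change of 0.22. npc1, which exports cholesterol from lysosomes, was at 85.7 ± 11.98 CPM in runx1-/- pools and 88.9 ± 20.8 CPM in WT pools (SD, n = 3 each). insig1, a brake on sterol synthesis, had a log2 fold change of 0.54, idi1 one of 0.28 and srebf2, the sterol-sensing transcription factor, one of -0.57, with edgeR adjusted p-values of 0.811 to 0.813.

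The measured glucocorticoid receptor and response genes, except pck1, likewise spanned less than the narrowest of the 8. Of 10 listed, 7 matched and passed the filter, with 2 positive and 5 negative, none passing in edgeR and a median log2 fold change of -0.04. fkbp5, a classical target of the glucocorticoid receptor, was at 1550 CPM, 989 CPM and 857 CPM in the runx1-/- pools, against 1874, 1208 and 1066 CPM in the WT pools, a span of 1.13 log2 units. The pool richest in fkbp5, WT pool 1, was among the poorest in the interrenal genes. The second richest, runx1-/- pool 1, was the richest in them, and r of fkbp5 with the mean of the 8 was 0.27. dusp1 spanned 0.42 log2 units, tsc22d3 1.30 and nr3c1, the receptor itself, 1.09. pck1, a gluconeogenic enzyme singled out after its values were seen, was at 16.1, 21.4 and 231 CPM in the runx1-/- pools, against 1.01, 34.2 and 46.0 CPM in the WT pools.

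Chromaffin cells share the gland with the steroid cells but make other products, so their markers were read beside the 8 genes. th, the tyrosine hydroxylase of catecholamine synthesis, was at 29.2, 2.44 and 1.56 CPM in the runx1-/- pools, against 0, 13.9 and 2.98 CPM in the WT pools. dbh, which makes noradrenaline, was at 53.3, 2.54 and 1.30 CPM in the runx1-/- pools, against 0, 24.3 and 3.68 CPM in the WT pools. Both ranked the 6 pools exactly as star did (rho = 1, exact permutation p = 0.00278 each). Other genes of the 8 differed from this order: cyp17a2, cyp21a2, hsd3b1, fdx1b and mrap were lowest in runx1-/- pool 3. th and dbh were lowest in WT pool 1. The comparison with star was outside the planned tests and covers 2 of the 10 matched chromaffin genes. Its p-values do not allow for the choice of these genes or of star. The exact order also rests on close levels of star, 4.93 CPM in runx1-/- pool 3 and 4.05 CPM in WT pool 1. In runx1-/- pool 2 and WT pool 3 star was at 38.9 and 48.2 CPM. Neither th nor dbh had a count in WT pool 1. Pearson's r with star was 0.890 for th (exact permutation p = 0.0111) and 0.925 for dbh (exact permutation p = 0.00694), both 0.0111 after adjustment over the 2 genes. Without runx1-/- pool 1 and WT pool 2 r was 0.733 for th and 0.784 for dbh. The part of the amount of gland tissue in the levels of the 8 genes was not tested.

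The chromaffin list as a whole was less uniform. Of 12 genes listed, 10 matched and 8 passed the filter. All 8 had positive fold changes, where 48% of all genes tested did, and their median log2 fold change was 0.86. None passed in edgeR, and 1, ddc, had an unadjusted p under 0.05, as 5.23% of all genes tested did. With the mean level of the 8 steroid genes the median r of these chromaffin genes over the 6 pools was 0.78. Over all other genes tested it was 0.0040. The chromaffin genes thus do not count as separate observations. ddc, which also acts outside the gland, took most of the list's sum and had another pattern, at 117 CPM, 293 CPM and 242 CPM in the runx1-/- pools, against 57.1, 121 and 106 CPM in the WT pools. The sum ranged between 232 and 308 CPM in runx1-/- pools and between 58.5 and 176 CPM in WT pools. hand2, a transcription factor of sympathoadrenal cells, was at 15.7, 6.39 and 3.60 CPM in the runx1-/- pools, against 0.386, 6.56 and 6.66 CPM in the WT pools. A fit with the mean log2 CPM of th and dbh as covariate was added after seeing the data. In it the median log2 fold change of the 8 steroid genes was -0.65, with 1 positive and 7 negative. The edgeR adjusted p-values lay between 0.917 and 0.996. This covariate follows the 8 steroid genes over the same pools, so the fit cannot show the part of the amount of gland tissue. In WT pool 1, without counts of th and dbh, the prior count set the covariate, at -3.66.

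**Figure D4:**
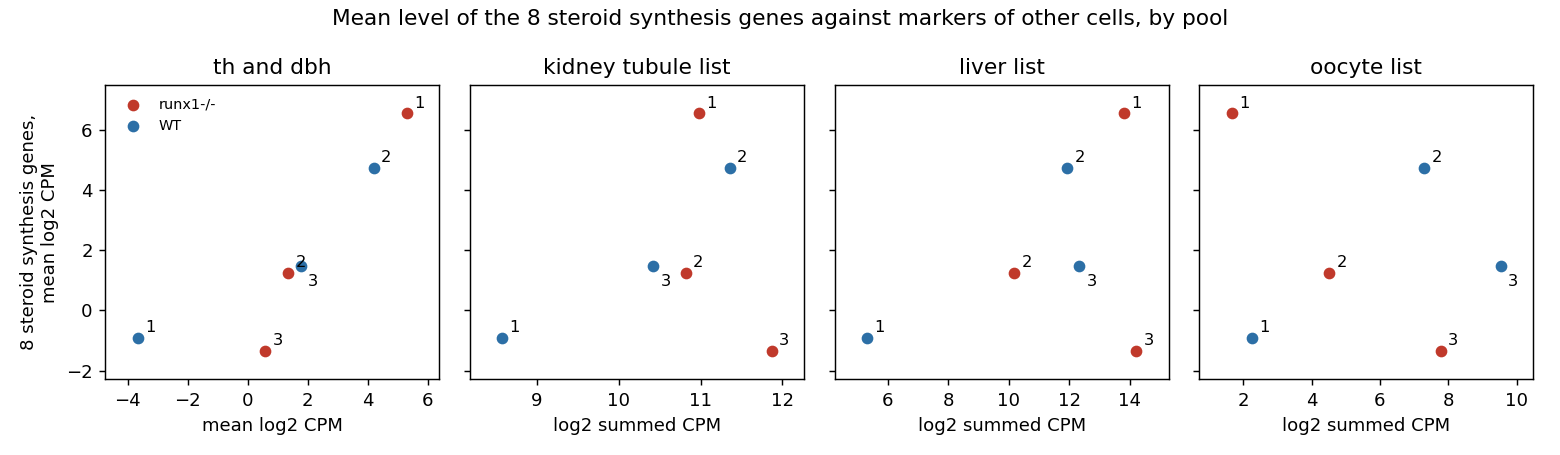
Mean log2 CPM of the 8 steroid synthesis genes on the y axis against 4 other readouts on the x axes, the mean log2 CPM of th and dbh and the log2 summed CPM of the kidney tubule, liver and oocyte lists; each point is a pool, red for runx1-/- and blue for WT, with its pool number. In the first panel the pools high in the 8 genes are also high in th and dbh. In the oocyte panel the highest pool, runx1-/- pool 1 at 6.55, has the lowest oocyte level at 1.67. WT pool 2, also high in the 8 genes, has an oocyte level of 7.30, and WT pool 1, low in them, one of 2.27. The first panel shows 2 picked genes and the other panels whole lists. The summed chromaffin list, not shown, was highest in runx1-/- pool 2 at 308 CPM.

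The summed marker lists of other tissues did not order the pools as th and dbh did, and neither did the summed chromaffin list. Liver markers, 7 of 8 matched, summed to 14320 CPM, 1163 CPM and 19003 CPM in the runx1-/- pools, against 39.7, 3920 and 5127 CPM in the WT pools, so runx1-/- pool 3 was highest in liver transcripts and lowest in the mean of the 8 genes. The 7 liver genes spanned between 8.27 and 9.23 log2 units over the pools, against 6.24 to 8.94 for the 8 genes. Each of the 7 was highest in runx1-/- pool 3, second in runx1-/- pool 1 and lowest in WT pool 1. The 9 matched oocyte genes spanned between 5.34 and 11.8 log2 units. A wide span was thus not particular to the 8 genes. Kidney tubule markers, 8 of 10 matched, summed to between 1807 and 3741 CPM in runx1-/- pools and between 381 and 2619 CPM in WT pools, and erythroid markers, 4 of 6 matched, to between 52317 and 63525 CPM in runx1-/- pools and between 66479 and 116617 CPM in WT pools. WT pool 1, low in the 8 genes, was lowest in tubule and liver and highest in erythroid transcripts. Gonadal somatic markers, 8 of 11 matched, summed to between 2.17 and 5.62 CPM in runx1-/- pools and between 1.82 and 3.31 CPM in WT pools. Of these, fshr, inha, lhcgr and cyp19a1a, named after their values were seen, were at 0 in at least 1 pool of each genotype. dmrt1 and amh, the 2 that passed the filter, had counts in every pool, 14 to 45 for dmrt1 and 9 to 18 for amh. Of the pools rich in the 8 genes runx1-/- pool 1 had the highest gonadal somatic sum and WT pool 2 the lowest.

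The genes whose pattern was most like the 8 were sought among 3370 others whose log2 CPM averaged at least 1 and spanned at least 2 units. Similarity was measured by Pearson's r with the mean of the 8 over the 6 pools. CYP11A1 (ENSDARG00000092696), of the unsettled pair that may hold the listed cyp11a2, came first at 0.997. It was followed by mbpa at 0.954, cxcl8b.3 at 0.946, CRHBP at 0.945 and MCTP1 at 0.940, and, further down, by MEAK7, obscna, SORCS2 and CPE at 0.929 to 0.911. mbpa encodes a myelin protein, CRHBP a binding protein of corticotropin-releasing hormone and CPE a peptide-processing enzyme of endocrine cells. CRHBP was at 56.5, 7.14 and 3.67 CPM in the runx1-/- pools, against 1.01, 25.5 and 6.05 CPM in the WT pools. mbpa was at 15.6, 3.15 and 0.890 CPM in the runx1-/- pools, against 1.16, 12.6 and 6.47 CPM in the WT pools. Of the 18858 other genes tested, which include the unsettled identifiers, 81 had an r of at least 0.9, or 0.430%. These correlations describe 6 pools and were ranked from all genes, so no p-value is attached to them.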

How the data were processed

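Per the labels, RNA of kidney pools was extracted with Trizol and a column kit and made into paired-end TruSeq libraries. The authors deposited 1 table of expected counts per library; between 12.7% and 14.9% of the nonzero values were not whole numbers. Per the submitters' processing notes, the tools named are STAR 2.5.26, RSEM and DESeq2 and the build is GRCz10; their roles, the annotation release and the use of strand were not given in the sources used here, so overlapping or closely related genes are uncertain. No coordinates or sequences are printed.

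Gene names came from a symbol table (26433 of 32266 identifiers) and from synonyms of the RefSeq list of GRCz12tu, used only where unique. Expected counts were rounded to whole numbers, as the design had assumed counts. In edgeR 4.0.16 under R 4.3.3, filterByExpr at a count minimum of 10 kept 18864 genes; the listed genes below it were added back, giving 18866. The quasi-likelihood F test used TMM scaling and genotype as the term, with Benjamini-Hochberg adjustment over all genes. The SE is the size of the log2 fold change over the square root of F. The fit was first tested on simulated data. Correlations and ratios used exact permutation tests in Python 3.11.15. The ratios added 0.5 counts to each count.

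The listed genes, the marker lists and the tests were chosen with earlier results of these data known. The named genes were the 8 matched genes, up to 4 per list by mean level, and the 10 most similar by r, of which 1 is not reported here; exceptions are stated where they occur. The labels call the pools separate samples of siblings, and p-values measure the spread between such pools. Alternatives were DESeq2 1.42.0 size factors and Wald test, other filters, TMM without the 50 genes of highest count, the replicate number as a block, other prior counts, and leaving out libraries.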

Additional observations from a re-analysis of the deposited data

How the results depend on the processing

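None of the 8 genes passed in any of the 16 alternatives, though in the DESeq2 Wald test 7 of them had no p-value and could not pass. The count over all genes was 0 except in that test, which called 105, and in the same test without its limit on Cook's distance, which gave all 8 a p-value and called 112. With 987 genes at an unadjusted p under 0.05 in edgeR, none of them among the 8, these tests say little about stability.

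Pools that share a number come from different fish. Their departures from their own genotype's mean correlated, over the genes tested, at 0.0930, -0.365 and 0.456 for pools 1, 2 and 3. Correlations between pools of different numbers were not computed, so these values cannot show whether the numbers pair the pools. With the replicate block, which by construction sets each pool against its same-numbered one, the median of the 8 genes was -1.73, at -1.96 for star, -0.93 for cyp11c1, -1.80 for cyp17a2, -1.32 for cyp21a2, -1.79 for hsd3b1, -1.68 for fdx1b, -1.95 for mc2r and -0.74 for mrap, and 899 genes had an unadjusted p under 0.05. Without runx1-/- pool 1 and WT pool 2 together the median was -0.17, at -0.26 for star, -0.58 for cyp17a2, -0.06 for cyp21a2, -0.09 for hsd3b1, -0.33 for fdx1b and -1.68 for mc2r. In that fit cyp11c1 at 0.061 and mrap at 0.36 stayed positive. With th and dbh as covariate the median was -0.65, at -0.74 for star, -0.87 for cyp11c1, -0.59 for cyp17a2, -0.44 for cyp21a2, -0.70 for hsd3b1, -0.51 for fdx1b and -0.98 for mc2r. With this covariate mrap stayed positive at 0.13. The cause of these sign changes was not tested.

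When each library was left out in turn, the median ran between -2.86 without runx1-/- pool 1 and 4.34 without WT pool 2. star ran between -3.23 and 4.72, cyp11c1 between -2.82 and 3.63, cyp17a2 between -2.73 and 4.02, cyp21a2 between -2.41 and 4.06, hsd3b1 between -3.32 and 4.99, fdx1b between -2.91 and 4.63, mc2r between -3.88 and 3.47, and mrap between -2.75 and 5.34. The log2 ratios to star ran between -0.84 and 0.33 for cyp11c1, -0.36 and 0.28 for cyp21a2, -0.69 and 0.064 for hsd3b1, -0.71 and 0.18 for fdx1b, and -0.14 and 0.76 for mrap; those of cyp17a2 and mc2r stayed negative. With 2 counts added no ratio changed sign, but the exact permutation p of mc2r went from 0.1 to 0.4. The 28 correlations passed with a prior count of 0.5 and with unscaled library sizes. They also passed as deviations from each genotype's mean. That test exchanged pools across genotypes, although the deviations were centred within each, so its p-values are too small to rely on. When each library was left out in turn, a choice made after seeing the data, r over 5 pools lay between 0.953 and 0.9996, and 28 of 28 passed each time, with adjusted exact permutation p-values of 0.0333 at most. Without runx1-/- pool 1 and WT pool 2 together, 0 of 28 passed, with adjusted exact permutation p-values of up to 0.333. The 4 pools left allow few pairings for such a test. At a mean count of at least 50, mc2r was not tested. The counts of runx1-/- pool 3 and WT pool 1 limit what can be said of mc2r and mrap.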

Other observations

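Among the other steroid genes, hsd17b3 was the one with an unadjusted p under 0.05, which 5.23% of all genes tested had. Its mammalian counterpart makes testosterone, and hsd17b3 is named after its values were seen. It was at 20.3, 9.57 and 15.2 CPM in the runx1-/- pools, against 1.45, 3.95 and 2.64 CPM in the WT pools, so the genotypes did not overlap, as for 12.5% of all genes tested. Its log2 fold change was 2.48 (SE 0.49, edgeR adjusted p = 0.638), short of the threshold, and higher in 3 of 3 runx1-/- pools than in any WT pool. Its pools were not ordered like those of star, since WT pool 2 lay below every runx1-/- pool.

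Among the cholesterol genes, msmo1, an enzyme of sterol synthesis, was at 36.8, 38.4 and 38.0 CPM in the runx1-/- pools, against 28.2, 20.9 and 22.4 CPM in the WT pools. Its log2 fold change was 0.66 (SE 0.22, edgeR adjusted p = 0.811), short of the threshold, and it was picked after its values were seen. soat2, which esterifies cholesterol, followed the interrenal genes in part, at 21.5, 0.0338 and 1.30 CPM in the runx1-/- pools, against 0.0482, 2.45 and 5.08 CPM in the WT pools. cyp19a1a, the gonadal aromatase, did not pass the filter and had 44 counts in runx1-/- pool 1, while no other pool had more than 5.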
